A study of Mus musculus with 6 samples.

Results

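Chromatin peaks at the ends of protein-coding genes that the Smc3 het list held and the Smc3 wt list did not are described here. A peak was taken when it lay on chromosomes 1 to 19, shared no base with any Smc3 wt peak, and had its summit at most 1 kb from an end of such a gene. There were 4051 such peaks among the 47233 peaks of the Smc3 het list. They touched 3903 of 20665 genes. Of these genes, 2956 had no Smc3 wt summit within 1 kb of either end and are called set apart below, while 947 also had a Smc3 wt gene-end peak. The peaks were chosen by their calls in the deposited lists, a measured value, so presence in one list and absence from the other is a description and carries no test.

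The data are bulk ATAC-seq of mouse bone marrow after depletion of lineage-positive cells, which the labels call HSPC (hematopoietic stem and progenitor cells). The Smc3 het group was 3 libraries labelled inv(16);Smc3 D/+, and the Smc3 wt group was 3 libraries labelled inv(16) with wild-type Smc3. Both groups therefore carried inv(16), and per the labels both had been through viral transduction and induction of Cre with tamoxifen, so neither is an untreated marrow. The sources used here give no age, no Cre driver and no count of animals. The authors deposited 1 peak list per genotype on mm10 rather than values per library. Differences below therefore have neither a replicate check nor a p-value. Read depth is unknown. In bulk samples, fewer cells with an open site and less opening per cell cannot be told apart.

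ATAC-seq marks open DNA by the places where the Tn5 transposase can insert adapters. Active mammalian promoters are a main class of such sites. Many lie in CpG islands, stretches rich in the CG dinucleotide, where ETS-family factors (Fli1 is one) and other factors bind near the start of transcription, and a smaller class of CpG-poor promoters serves tissue-restricted genes. Smc3 encodes a ring subunit of cohesin, the complex that holds sister chromatids together and extrudes chromatin loops, and loops bring distant enhancers to promoters. The inversion inv(16) of human acute myeloid leukemia fuses CBFB, a core-binding factor gene, with MYH11. The study's title names Fli1 programs as its subject.

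The sequences under 6 of these peaks give examples of CpG-rich and CpG-poor promoters, not the whole range of the set. The sequences come from RefSeq (GRCm38.p6, the assembly of mm10) and run from 250 bases before to 50 bases after the gene start, on the gene's strand. They belong to set-apart genes and lie wholly within a peak absent from the Smc3 wt list. They were chosen, after the values were seen, from the strongest peaks of 241 promoters that meet that condition. The first pair carries the ETS letters CCGGAAG, or CTTCCGG on the other strand, given in capitals. The strongest such promoter with these letters, that of Amdhd1 (−log10 q 38.8), is not shown. Its ratio of observed to expected CpG was 0.502, between the CpG-rich and CpG-poor examples. Sf3a3 encodes a subunit of a spliceosome factor, and its window is chr4:124714611-124714910 on the plus strand. Fbxo22 encodes a substrate receptor of a ubiquitin ligase, and its window is chr9:55208685-55208984 on the plus strand.
Sf3a3: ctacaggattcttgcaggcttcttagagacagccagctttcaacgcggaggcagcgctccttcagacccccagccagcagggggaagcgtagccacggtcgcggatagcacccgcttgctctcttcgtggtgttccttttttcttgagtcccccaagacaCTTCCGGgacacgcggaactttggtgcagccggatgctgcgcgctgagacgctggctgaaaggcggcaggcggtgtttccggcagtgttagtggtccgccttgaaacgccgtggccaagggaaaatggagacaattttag
Fbxo22: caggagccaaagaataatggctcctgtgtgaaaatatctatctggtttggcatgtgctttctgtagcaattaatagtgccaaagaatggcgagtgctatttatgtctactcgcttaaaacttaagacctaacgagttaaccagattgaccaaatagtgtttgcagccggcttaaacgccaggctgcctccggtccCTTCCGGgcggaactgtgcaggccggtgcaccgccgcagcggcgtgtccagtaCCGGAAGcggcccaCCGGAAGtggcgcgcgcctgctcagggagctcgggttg
The Sf3a3 promoter held 1 copy of the letters, and the peak over it had a −log10 q of 37.8. The Fbxo22 promoter held 3 copies, all near the gene start, under a peak with a −log10 q of 32.7. The nearest Smc3 wt peaks lay 20700 bp and 58643 bp away.

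The next sequences contrast CpG content, with each CG in capitals. Atp8b3 encodes a phospholipid-transporting ATPase (chr10:80539075-80539374, minus strand), and Fkbp7 encodes a prolyl isomerase of the endoplasmic reticulum (chr2:76673049-76673348, minus strand). Zfp970 encodes a zinc-finger protein (chr2:177464492-177464791, plus strand), and Gm14391 is a predicted protein-coding gene on the same chromosome (chr2:175206875-175207174, minus strand).
Atp8b3: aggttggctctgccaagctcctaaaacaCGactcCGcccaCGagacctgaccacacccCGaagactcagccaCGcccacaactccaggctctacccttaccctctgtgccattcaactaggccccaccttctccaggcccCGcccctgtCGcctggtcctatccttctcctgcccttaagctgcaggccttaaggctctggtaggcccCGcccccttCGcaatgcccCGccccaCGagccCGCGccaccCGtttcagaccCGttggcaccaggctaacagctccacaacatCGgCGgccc
Fkbp7: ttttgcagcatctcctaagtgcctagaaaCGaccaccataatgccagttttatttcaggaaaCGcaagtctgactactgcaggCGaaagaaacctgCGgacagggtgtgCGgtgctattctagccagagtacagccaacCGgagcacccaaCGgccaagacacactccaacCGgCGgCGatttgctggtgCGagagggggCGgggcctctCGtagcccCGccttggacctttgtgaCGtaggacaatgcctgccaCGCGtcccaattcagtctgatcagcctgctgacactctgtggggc
Gm14391: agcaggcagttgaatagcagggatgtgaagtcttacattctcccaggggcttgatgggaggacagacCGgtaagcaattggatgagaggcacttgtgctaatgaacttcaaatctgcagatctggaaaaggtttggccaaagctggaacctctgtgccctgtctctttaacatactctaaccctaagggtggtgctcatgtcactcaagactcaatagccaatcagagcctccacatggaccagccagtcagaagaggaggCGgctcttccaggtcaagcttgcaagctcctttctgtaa
Zfp970: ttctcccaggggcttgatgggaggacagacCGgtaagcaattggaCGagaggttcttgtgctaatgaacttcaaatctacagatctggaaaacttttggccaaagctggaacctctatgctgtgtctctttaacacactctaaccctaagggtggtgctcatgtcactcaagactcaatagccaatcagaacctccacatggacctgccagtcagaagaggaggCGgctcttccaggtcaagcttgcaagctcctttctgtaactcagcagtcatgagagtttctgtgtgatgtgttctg
Atp8b3 and Fkbp7 had 17 CG each, and ratios of observed to expected CpG of 0.645 and 0.698. Gm14391 had 2 CG and a ratio of 0.108, and Zfp970 had 3 CG and a ratio of 0.171. The Gm14391 and Zfp970 windows are near copies: placed against each other with a shift of 37 bases, 251 of 263 bases were equal (95.4%). Reads from such copies may be placed at either one, so which of these genes carries the peak is uncertain. More generally, 72 of 1582 promoters under these peaks (4.55%, 3.58 to 5.70) shared an exact run of 60 bases with the promoter of another gene elsewhere. This compares with 1.55% (1.29 to 1.86) of promoters under peaks found in both lists and 6.29% of all 20085 promoters. Intervals are exact (Clopper-Pearson) 95% binomial intervals throughout. They cover counting error only and treat peaks and genes as independent.

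Set against the whole Smc3 het list, gene ends held relatively few of the peaks found there alone. On chromosomes 1 to 19, 31736 of 45534 Smc3 het peaks overlapped no Smc3 wt peak (69.7%). At gene ends the figure was 4051 of 11185 (36.2%), and the other 7134 gene-end peaks overlapped a Smc3 wt peak and are called shared. Going the other way, 36 of 7201 Smc3 wt gene-end peaks overlapped no Smc3 het peak. By genes, 2956 of 20665 (14.3%) were set apart in Smc3 het, and 57 (0.276%) had a gene-end peak in the Smc3 wt list alone. Both lists had a gene-end peak at 8048 genes and neither had one at 9580. By chromosome the share of gene-end peaks found in Smc3 het alone was between 30.7% (26.5 to 35.2) on chromosome 13 and 41.0% (37.1 to 45) on chromosome 17.

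The peaks were weak and narrow. Their median −log10 q, as the authors' peak caller gave it, was 5.57 (quartiles 3.52 and 9.42), against 34.6 for shared gene-end peaks (quartiles 20.4 and 55.1) and 4.52 for the 27685 Smc3 het only peaks away from gene ends. The median fold over background was 2.83, against 5.85 for shared gene-end peaks. The median width was 285 bp, against 723 bp, and 1126 of the 4051 peaks (27.8%) were narrower than the narrowest Smc3 wt peak of 208 bp, against 0.687% of shared gene-end peaks. The narrowest Smc3 het peak was 138 bp. The lowest width thus differed between the lists, and the share under 208 bp depends on that difference. When the Smc3 het list was shortened by −log10 q to the 14830 peaks of the Smc3 wt list, 667 of the 4051 peaks stayed in it (16.5%, 15.3 to 17.6), against 90.7% of shared gene-end peaks. Only 113 of the 4051 (2.79%) had a fold of at least 5.

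How often a gene-end peak was missing from the Smc3 wt list followed its height. The pileup, the number of fragments stacked at the summit, was recovered from the deposited fold and p-value. It was at least 23 in the Smc3 het list and at least 21 in the Smc3 wt list, over backgrounds of 10.62 and 8.65. Of gene-end peaks with a pileup of 23 to 29, 98.4% had no Smc3 wt overlap, of those with 40 to 49 it was 63.6%, and of those with 60 to 79 it was 12.7%. With a pileup of 100 to 379, 11 of 2499 peaks had none (0.440%). Shared gene-end peaks had a median ratio of Smc3 het to Smc3 wt pileup of 1.65 (5th to 95th percentile 1.25 to 2.17), so a site of 40 to 49 in Smc3 het stood at a median of 30 in Smc3 wt when it was called there. The peaks found in Smc3 het alone had a median pileup of 36, and the lowest Smc3 wt pileup times that ratio is 34.7. However, the ratio rests on shared gene-end peaks with a median pileup of 84. Among sites called in both lists, those of 23 to 29 and 30 to 39 in Smc3 het stood at medians of 24.5 and 27 in Smc3 wt. These are smaller ratios, so 34.7 is not a detection limit. The number of reads in each list and the genotype cannot be told apart in these files.

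**Figure D1:**
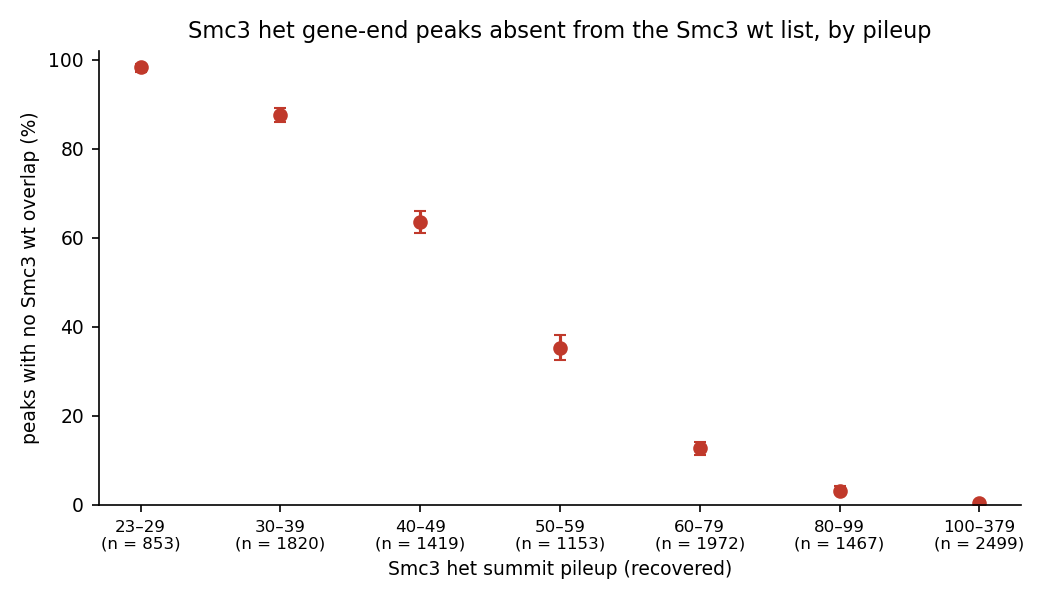
Share of Smc3 het gene-end peaks with no Smc3 wt overlap (vertical axis, percent, with exact 95% intervals) by the recovered summit pileup in Smc3 het (horizontal axis, n peaks in each class). The share goes down at every step, from 98.4% at pileups of 23 to 29 down to 0.440% at 100 to 379.

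The strongest peaks at set-apart genes lay well above that median. Tomm7, a subunit of the protein import pore of the outer mitochondrial membrane, had the most significant one, at chr5:23844005-23844289 over one gene end, with a pileup of 96, a fold of 8.15 and a −log10 q of 52.2. Fggy, a carbohydrate kinase, had one 18 bp upstream of its start (chr4:95557238-95557740) with a pileup of 93 and a −log10 q of 50.4. Tmem94, a transmembrane protein, had 97 and 49.1. Cdc42, a regulator of actin and cell polarity, had 88 and 41.7, and Atp8b3 had 103 and 41.6. The rest of the leading 10 were Zfp593, Dpy19l4, Abcd4, and the neighbours Anp32a and Gm20346, which share 1 peak. These 10 genes had −log10 q values of 38.9 or more.

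Where a gene had a gene-end peak in Smc3 wt as well, 3 of the 5 strongest peaks found in Smc3 het alone lay within 1 kb of a Smc3 wt peak. Morf4l1, a chromatin-binding MRG-domain protein, had a 203 bp peak with a −log10 q of 50.4 that lay 215 bp from a Smc3 wt peak. At Mlf2 the gap was 163 bp (−log10 q 42.3) and at Gpr108 it was 779 bp (35.6). At Myl6b, a myosin light chain, and Eef1b2, a translation elongation factor subunit, the nearest Smc3 wt peak was 4723 bp and 3625 bp away, with −log10 q values of 45.6 and 30.9. In all, 364 of the 4051 peaks (8.99%) lay within 500 bp of a Smc3 wt peak. Only 15 of these were at set-apart genes, as the definition of such genes nearly requires. The 3223 peaks at set-apart genes had a median −log10 q of 5.89 and a median width of 297 bp, and the 828 at other genes had 4.99 and 244 bp. The widest 5 peaks lay at Pde3b (2001 bp), Nkpd1 (1552 bp), Clip1 (1250 bp), Unc13d (1193 bp) and Fhod3 (1188 bp), and their −log10 q values were between 4.63 and 17.0.

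Most of these peaks were at gene starts, but less closely centred on them than shared peaks. The start and the 3′ end of a gene could be told apart for 3175 of the 4051 peaks, where RefSeq promoters gave the strand. Among the 3139 peaks with a single nearest stranded end, it was the start for 2526 (80.5%, 79 to 81.8), against 97.2% (96.7 to 97.6) of 5863 shared gene-end peaks. Of the start peaks, 31.4% (29.6 to 33.2) had the summit within 100 bp of the start, against 58.2% (56.9 to 59.5) of shared ones. Another 50.3% (48.3 to 52.3) lay more than 100 bp downstream, inside the gene, against 24.7% (23.6 to 25.8) of shared ones, and upstream shares were close at 18.3% and 17.1%. At set-apart genes 35.6% were within 100 bp of the start.

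**Figure D2:**
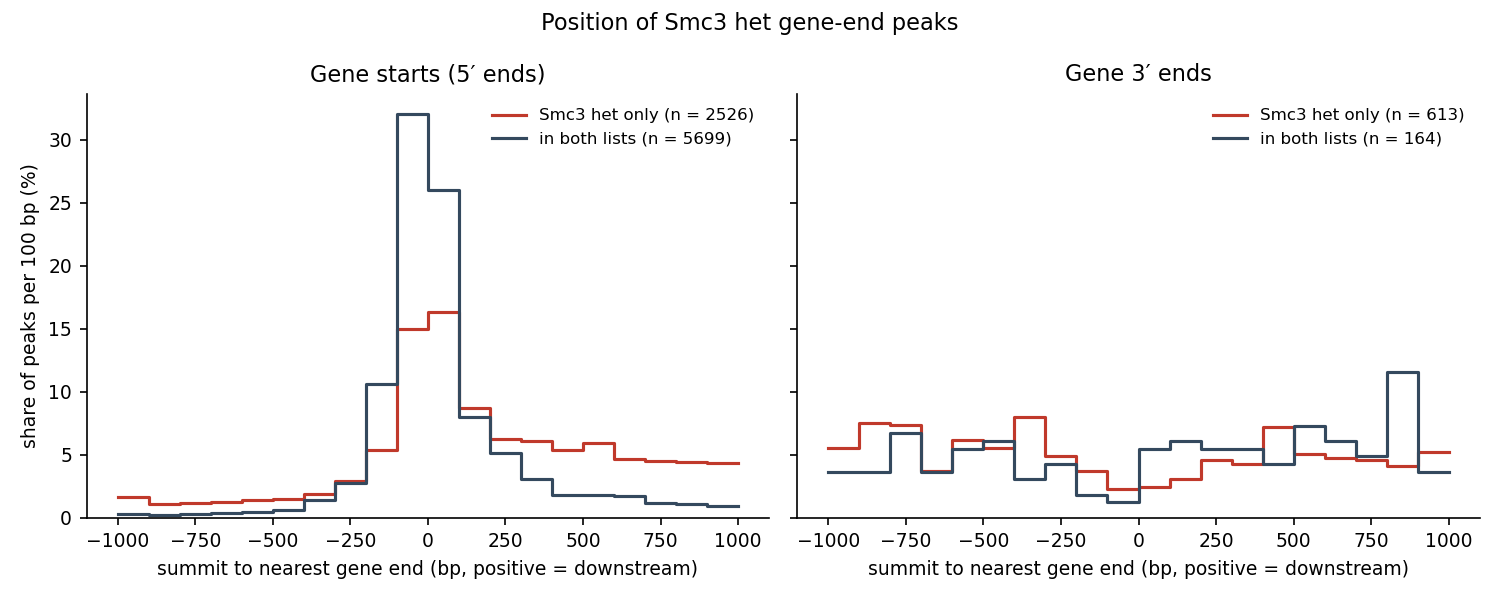
Distance from the summit to the nearest gene start (left) or 3′ end (right) in bp, positive downstream, as the share of peaks per 100 bp (vertical axis, percent), for peaks found in Smc3 het alone (red) and for gene-end peaks in both lists (blue). At starts the red line has a lower centre and a longer downstream shoulder. At 3′ ends neither line has a centre, with 4.73% of the red and 6.71% of the blue peaks within 100 bp.

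At like significance the positions at starts were mostly close. In classes of −log10 q up to 6, 6 to 10, 10 to 15, 15 to 20, 20 to 30 and over 30, the summit lay within 100 bp of the start in 18.2%, 35.6%, 47.8%, 59.8%, 65.4% and 63.6% of Smc3 het only start peaks. In shared start peaks the shares were 24.6%, 37.0%, 47.1%, 48.9%, 60.8% and 62.6%. The intervals overlapped in all 6 classes, narrowly in that of 15 to 20 (51.7 to 67.4, against 44.4 to 53.4). The share at 3′ ends was higher for Smc3 het only peaks in all 6. It was 17.4% (14.7 to 20.4) against 10.2% (6.65 to 14.8) of shared peaks in the class of 6 to 10, 17.0% (13.4 to 21) against 5.24% (3.42 to 7.64) in the class of 10 to 15, and 13.1% (8.59 to 18.9) against 6.48% (4.53 to 8.93) in the class of 15 to 20. In the class over 30 only 2 Smc3 het only peaks lay at a 3′ end. Width differed too, with medians of 401 bp and 569 bp in the class of 10 to 15. A wider peak has more bases with which to overlap, so width is tied to the way these peaks were chosen.

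The edge of the 1 kb window did not mark a break. The 4 peaks just inside it, at Chmp4b, Sox6, St8sia6 and Fzd7, had summits 999 to 1000 bp from a gene end and −log10 q values of 22.2, 2.80, 5.96 and 3.58. The 4 just outside, at Snrk, Zfp978, Stat6 and Tnfrsf21, were at 1001 to 1002 bp with 3.21, 4.85, 11.3 and 6.10. There were 269 peaks in the last 100 bp inside the window and 231 in the first 100 bp outside it, with a median −log10 q of 4.52 in each.

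Promoters under these peaks were less rich in CpG than promoters under shared peaks and much richer than promoters without a peak. Smc3 het only gene-end peaks overlapped 1582 promoter windows of 1467 genes that no peak found in both lists overlapped. In these promoter counts a shared peak is any Smc3 het peak that overlapped a Smc3 wt peak, at a gene end or not. Their median CpG ratio was 0.702, against 0.822 for 7720 promoters with a shared peak and 0.264 for 10353 with no peak of either list. A ratio of at least 0.6 was found in 62.5% (60 to 64.8), against 85.1% of shared-peak promoters, 19.9% of those with no peak and 48.9% of all promoters. At like significance the gap was smaller. In the class of −log10 q from 6 to 10 the shares were 60.5% (55.6 to 65.2) and 71.6% (64.7 to 77.8), and in the class of 15 to 20 they were 75.6% and 77.7%. The gap was wider again among stronger peaks. It was 75% against 82.9% in the class of 20 to 30, and 75.8% (57.7 to 88.9) against 89.4% over 30.

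The ETS letters shown above followed the same order. They were present in 13.1% (11.5 to 14.9) of promoters under Smc3 het only peaks, against 23.6% (22.7 to 24.6) under shared peaks, 3.05% with no peak and 11.9% of all promoters. Within classes of like −log10 q the intervals of both groups overlapped in all 6 classes. In the class of 6 to 10, for example, the shares were 11.7% (8.76 to 15.1) and 16.8% (11.8 to 22.7). The PU.1-type letters GAGGAAG, which share GGAAG with the ETS letters but cannot occupy the same bases on the same strand, were in 15%, against 12.2% under shared peaks and 13.2% of all promoters. The RUNX letters TGTGGT were in 13%, against 11.7% and 14.8%, and the GATA letters AGATAA in 8.03%, against 4.72% and 9.57%. The GC box letters GGGCGG were in 62.0%, against 70.2% and 47.0%. All were searched on both strands in the 300-base windows, and a match is not a bound site.

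**Figure D3:**
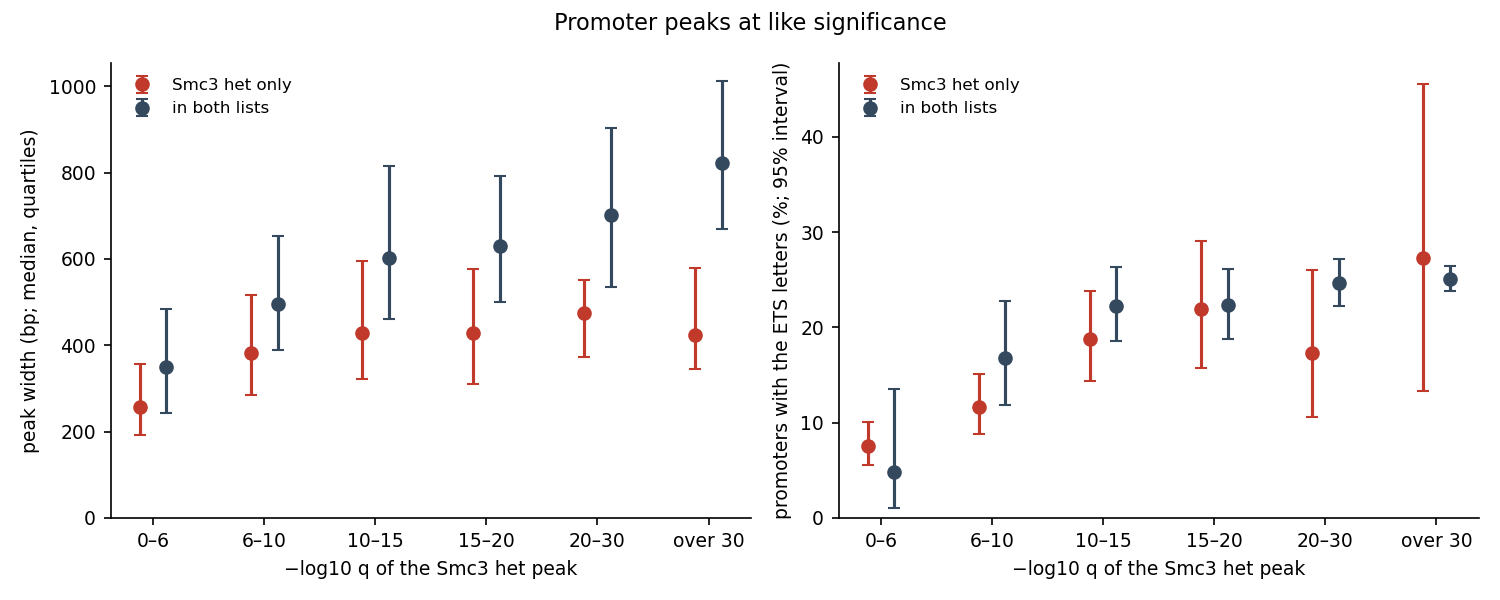
Promoter peaks found in Smc3 het alone (red) and in both lists (blue) in classes of the −log10 q of the Smc3 het peak (horizontal axis). Left, peak width in bp (median with quartiles); right, share of promoters with the letters CCGGAAG on either strand (percent, exact 95% interval). The red medians of width lie lower in all 6 classes, with 256 bp against 348.5 bp in the lowest class and 424 bp against 823 bp in the highest, while the intervals on the right overlap in all 6.

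None of these peaks lay at Smc3, Fli1, Cbfb, Runx1 or Myh11. Both lists marked an end of Smc3 (the targeted gene), Cbfb and Runx1, and neither list marked an end of Fli1 or Myh11. Such a peak checks no label, since it cannot count intact Smc3 alleles. Of 17 ETS and stem-cell transcription factor genes, 2 were set apart (11.8%), near the 14.3% of all genes, and 10 had a Smc3 wt gene-end peak, among them Etv6, Spi1, Gabpa, Tal1 and Lyl1. The 2 were Gata2, a zinc-finger factor of blood stem cells with a pileup of 44 and a −log10 q of 6.34 at +57 bp from its start, and Elk3, an ETS factor with pileups of 26 and 24, near the lowest value called. In the list of 10 genes for core-binding factor and its inv(16) partners only Tle3, a Groucho-family corepressor, was set apart. Its peak at chr9:61372227-61372716 lay 3 bp from the start, with a pileup of 88 and a −log10 q of 27.3, and the nearest Smc3 wt peak was 1371 bp away.

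At 1 kb, the monocyte and macrophage list and the dendritic cell list held the largest shares of set-apart genes among all called peaks. This order did not hold when both peak lists were limited to a fold of at least 5 (values given after the lists). The dendritic cell list was also not second at 500 bp, and B cell markers equalled it at 2 kb. Of 16 monocyte and macrophage markers, 8 were set apart (50%, 24.7 to 75.3), against 14.3% (13.8 to 14.8) of all genes. Cd68, a lysosomal glycoprotein of macrophages, had a peak at chr11:69666081-69666506, 47 bp upstream of its start, with a pileup of 76 and a −log10 q of 17.6, and a second peak with 6.33 at its 3′ end. Klf4, a zinc-finger factor needed for monocyte development, had 47 and 12.1, and the chemokine receptor Cx3cr1 had 45 and 12.2. Cd14, Lyz2, Adgre1, S100a4 and the M-CSF receptor gene Csf1r had lower ones, with −log10 q values between 3.43 and 9.01. Fcgr1 had a Smc3 het only peak at its 3′ end and also a Smc3 wt gene-end peak. Another 6, Ly86, Ccr2, Itgam, Ly6c2, F13a1 and Mrc1, had a gene-end peak in neither list. The median pileup of the 8 was 38, against 37 for all set-apart genes.

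Dendritic cell markers came next, with 5 of 12 set apart (41.7%, 15.2 to 72.3). Flt3, a receptor tyrosine kinase of early progenitors as well as dendritic precursors, had the highest of these peaks, with a pileup of 61 and a −log10 q of 20.6 at +119 bp (chr5:147400268-147400607), and a second at its 3′ end with 26 and 2.41. Batf3, a factor of conventional dendritic cells, had 40 and 7.66, while Clec9a, Itgax and Siglech had −log10 q values of 2.80, 2.75 and 2.41, close to the calling limit. Of 14 granulocyte-monocyte progenitor markers 5 were set apart (35.7%, 12.8 to 64.9): Hk3, Cebpe, Prtn3, Csf1r and Cd34. Their peaks were weak, with −log10 q values of 8.09, 4.37, 3.66, 3.43 and 3.21 in that order. The Prtn3 peak was at the 3′ end, 512 bp from a Smc3 wt peak. Mpo, Elane, Ctsg and Irf8 had a gene-end peak in neither list, and Cebpa had one in both. Stromal and endothelial markers reached 4 of 12 (33.3%, 9.92 to 65.1), with Col1a1, Eng, Kdr and Pecam1, whose highest −log10 q values were 7.60, 6.19, 4.52 and 4.07. A change in cell makeup between the genotypes was not tested.

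Other blood lineages were nearer the share of all genes with the 1 kb window. Megakaryocyte markers had 3 of 12 (Gfi1b, Gp9, Itgb3), mast cell, basophil and eosinophil markers 3 of 12 (Gata2, Il1rl1, Mcpt8), neutrophil markers 2 of 12 (Mmp8, Camp), and B cell markers 2 of 12 (Ebf1, Il7r). Erythroid markers had 1 of 11 (Epor) and T and NK cell markers 1 of 14 (Tbx21). None of 16 genes of unrelated tissues was set apart (interval up to 20.6%), and all 16 had a gene-end peak in neither list. None of 12 housekeeping genes was set apart either (interval up to 26.5%), and 10 of them had a Smc3 wt gene-end peak. With a window of 500 bp or of 2 kb 1 housekeeping gene was set apart, and with a fold of at least 5 in both lists 4 were. The lineage counts also moved with the window. At 2 kb 16.8% of all genes were set apart. B cell markers then had 5 of 12, T and NK cell markers 5 of 14 and neutrophil markers 4 of 12. Dendritic cell markers had 5 of 12 there too, and monocyte and macrophage markers 8 of 16. At 500 bp, with 11.6% of all genes, dendritic cell markers had 3 of 12 and monocyte and macrophage markers 7 of 16.

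**Figure D4:**
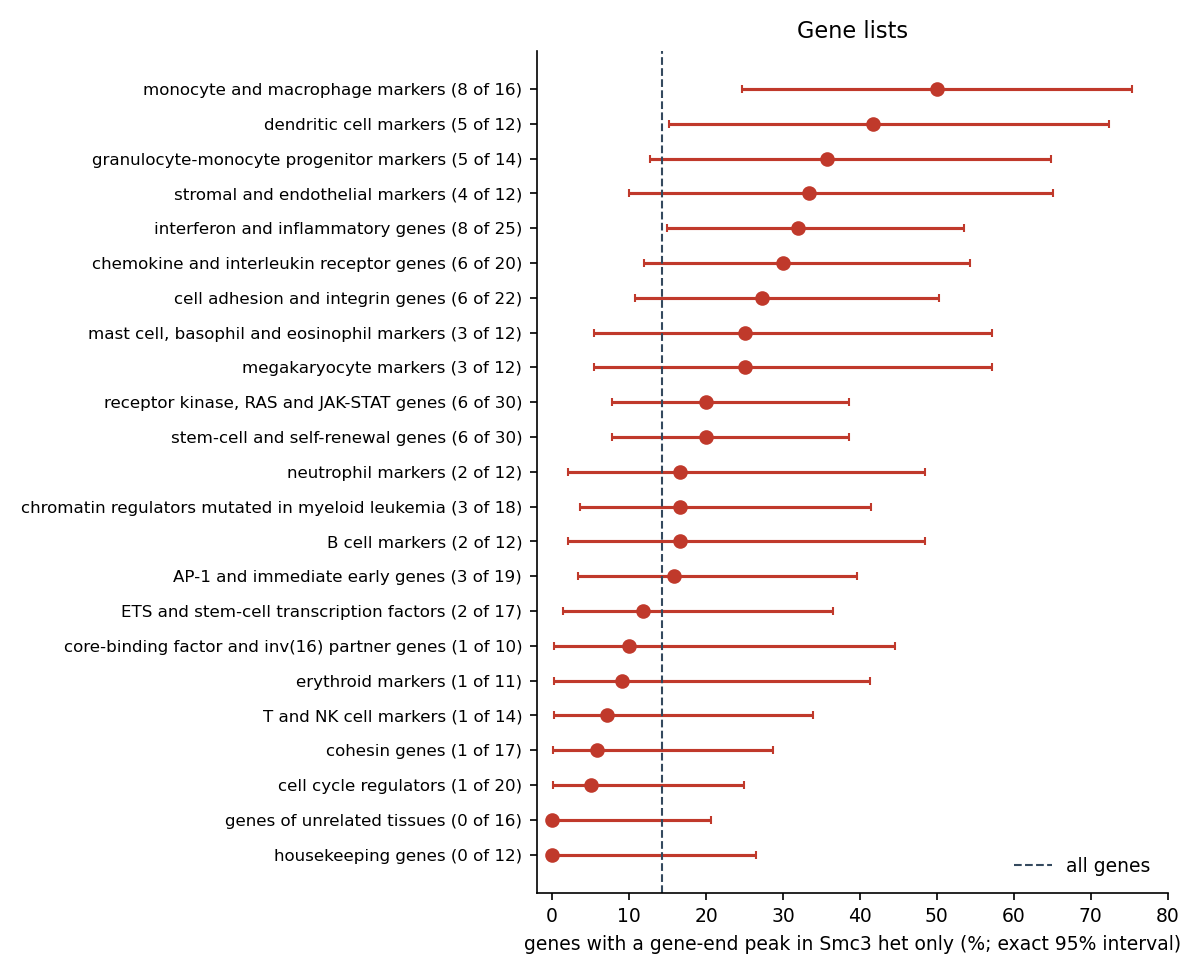
Share of each gene list with a gene-end peak in Smc3 het and none in Smc3 wt (horizontal axis, percent, exact 95% interval, with counts beside each name); the dashed line is the 14.3% of all genes. The intervals of the monocyte and macrophage, dendritic cell, and interferon and inflammatory lists lie above the line, and those of the other 20 lists cross it.

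Inflammatory genes were set apart at 8 of 25 (32.0%, 14.9 to 53.5). They span ligands, receptors and factors. The ligands were Il6, an acute-phase cytokine, with a pileup of 42 and a −log10 q of 10.3, and the monocyte chemokine Ccl2, with 40 and 9.18. The receptor Tlr2 and its adaptor Myd88 had −log10 q values of 5.97 and 6.83. The factors were Irf7, the main inducer of type I interferon, with 55 and 11.4, and Irf5 and Nfkb1, with 5.04 and 7.25, and the antiviral enzyme gene Oas1a had 5.96. Another 11 of the 25 had a Smc3 wt gene-end peak, among them Stat2, Irf1, Rela and Tnf. Ifit1, Ifit3, Isg15 and Cxcl10, which interferon induces strongly, had a gene-end peak in neither list.

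Receptors and signalling genes gave intermediate shares. Chemokine and interleukin receptors had 6 of 20 (30%, 11.9 to 54.3) and cell adhesion and integrin genes 6 of 22 (27.3%, 10.7 to 50.2), led by Itgb2, the common chain of leukocyte integrins, with a pileup of 54 and a −log10 q of 14.8. That Itgb2 peak had its summit 852 bp from a gene end of unknown strand and lay only 348 bp from a Smc3 wt peak. A second Itgb2 peak, with its summit 21 bp from that end, had a −log10 q of 4.07. Receptor kinase, RAS and JAK-STAT genes had 6 of 30 (20%, 7.71 to 38.6). Csf2rb, the shared chain of the GM-CSF, IL-3 and IL-5 receptors, had 64 and 18.7. Jak3, a kinase of cytokine receptors, had 49 and 11.1, and Bcl2, an inhibitor of apoptosis, had 35 and 3.63. Of 30 genes of this list 21 had a Smc3 wt gene-end peak.

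Stem-cell and self-renewal genes also had 6 of 30 set apart (20%, 7.71 to 38.6), and neither list marked an end of another 16 of the 30. Mllt3, a subunit of the super elongation complex that maintains blood stem cells, had a pileup of 57 and a −log10 q of 18.1 at +13 bp. Mycn, a MYC-family factor, had 51 and 15.3 at 715 bp upstream, and Sox4 had peaks with 50 and 42. Hoxb4, Hoxa7 and Cd34 were weaker, with −log10 q values of 7.46, 2.25 and 3.21. AP-1 and immediate early genes had 3 of 19 (15.8%): Nr4a3 with 74 and 17.2, Nr4a2 with 50 and 15.4, and Bach2 with 38 and 7.61. Another 7 of these 19, among them Fosb, Junb and Ier3, had both such a peak and a Smc3 wt gene-end peak.

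Chromatin, cohesin and cell cycle genes were near or below the share of all genes among all called peaks, though not for chromatin and cell cycle genes at a fold of at least 5. Of 18 chromatin regulators mutated in myeloid leukemia 3 were set apart (16.7%). Kmt2a, the histone methyltransferase rearranged in leukemia, had a 236 bp peak (chr9:44881366-44881601) with a pileup of 83 and a −log10 q of 33.4 at 103 bp upstream and a second with 3.90. Chd4 and Idh2 had 4.54 and 1.81. Of 17 cohesin genes only Rec8, the meiotic kleisin, was set apart (5.88%), with 53 and 16.6, and of 20 cell cycle regulators only Ccnd3, cyclin D3, was (5%), with 74 and 17.7. A gene with a Smc3 wt gene-end peak cannot be set apart. Such a peak was at 13 of the 18 chromatin, 8 of the 17 cohesin and 15 of the 20 cell cycle genes. Over all genes it was at 8105 of 20665.

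**Figure D5:**
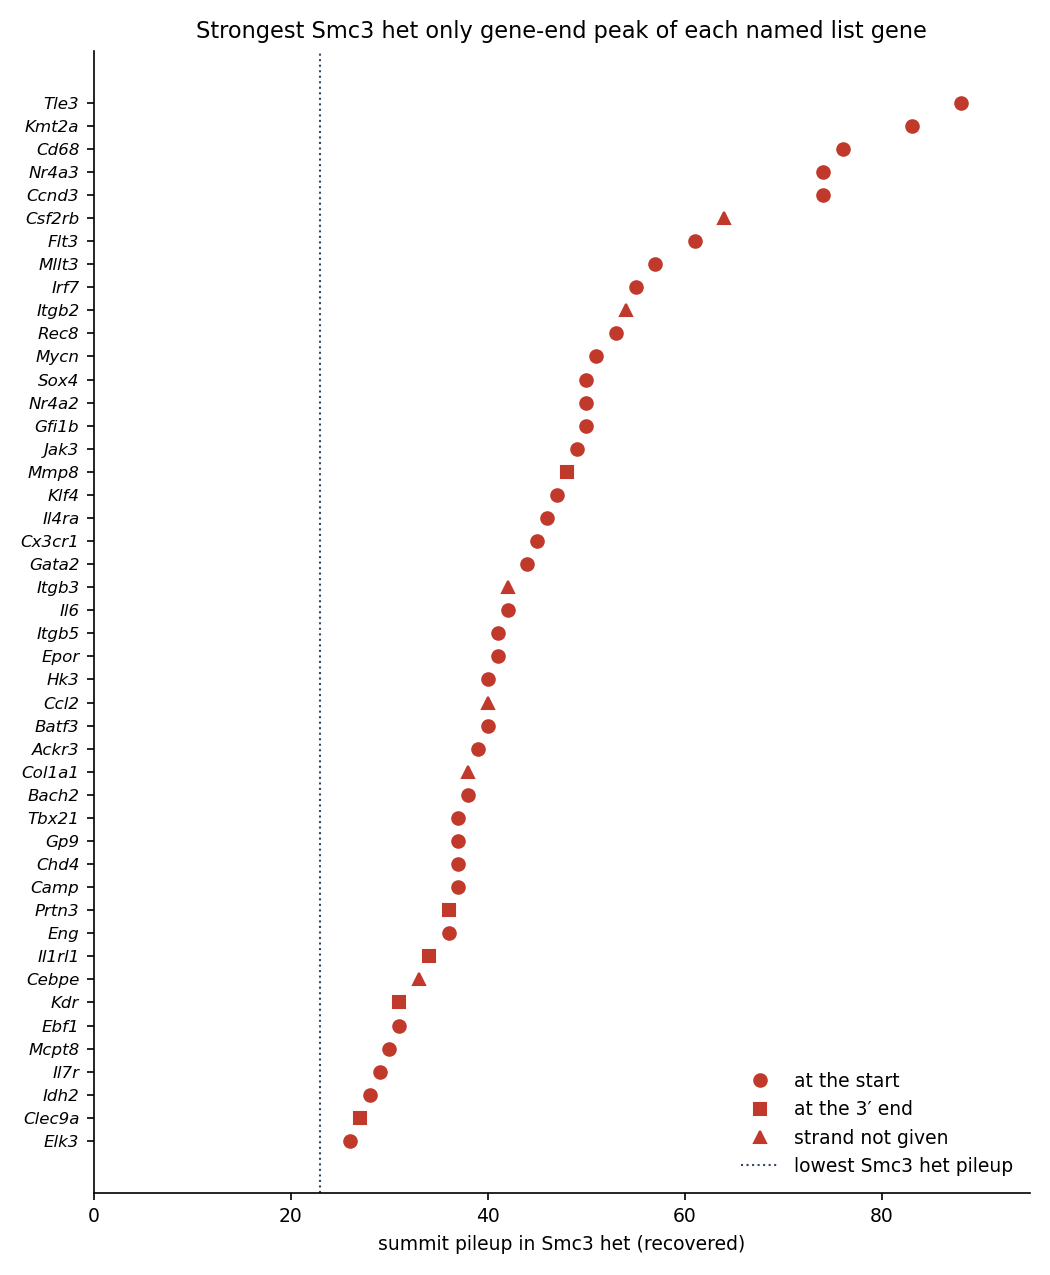
Recovered summit pileup in Smc3 het (horizontal axis) of the strongest Smc3 het only gene-end peak of each named list gene, by the end it lies at; the dotted line is the lowest pileup called, 23. Tle3 with 88 and Kmt2a with 83 lead, and Clec9a with 27 and Elk3 with 26 lie next to the line.

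The counts, and the order of the lists, changed with the strength of the peaks compared, and also with the window as given above. At equal list length 608 genes were set apart (2.94% of 20665), and the counts were 3 of 16 for monocyte and macrophage markers, 1 of 12 for dendritic cell markers, 0 of 25 for inflammatory genes, 2 of 30 for stem-cell genes and 2 of 19 for AP-1 and immediate early genes. With a pileup of at least 60, where 260 genes were set apart (1.26%), they were 1, 1, 0, 0 and 1, too few to rank the lists. With both lists limited to peaks with a fold of at least 5, 2245 genes were set apart (10.9%). The monocyte and macrophage list then had 0 of 16 and the dendritic cell list 1 of 12, and inflammatory genes had 5 of 25. None of the peaks given above for set-apart genes of these lists could pass that limit. Their folds were at most 3.96 (Cx3cr1), 4.78 (Flt3) and 3.70 (Il6), so the counts at that limit rest on other peaks. Chromatin regulators had 7 of 18, cell cycle regulators 5 of 20, housekeeping genes 4 of 12 and ETS and stem-cell factors 5 of 17. That setting also counts sites where a Smc3 wt peak exists with a fold under 5. Lists share genes (Flt3, Csf1r, Cx3cr1, Gata2, Itgb3, Itgax, Cd34, Il7r and Il1rl1 are each in more than 1), so their counts are not independent.

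Within genes, 400 set-apart genes had 2 or more of these peaks. Kcnk12, a potassium channel subunit, and Cdk5r1, an activator of Cdk5, had 4 each, with highest −log10 q values of 11.1 and 4.13. Among genes with 3, Sos2, a RAS exchange factor, and Gadd45g, a stress-response gene, had the highest, 25.2 and 25.1. Of set-apart genes 562 had a Smc3 wt peak somewhere inside the gene and 2394 had none. The strongest peak lay at the start in 1921 and at the 3′ end in 353 of the 2274 with a known strand. Set-apart genes had a median length of 20384 bp, against 21390 bp for genes marked in both lists and 12800 bp for genes marked in neither.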

How the data were processed

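The submitters' processing notes name Bowtie2, MACS2 and mm10. Versions, read filters, any Tn5 shift and pooling: not given in the sources used here. Deposited was 1 narrowPeak list per genotype: a position, an integer score, a fold (ratio of the summit to background), −log10 p and −log10 q, and a summit. These are the peak caller's values within its own list. The score was not used.

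Overlap was 1 bp or more. Gene ends came from a RefSeq table (GRCm38.p6), and strand from RefSeq promoter windows, which matched 16457 of 20665 genes and none on chromosome 18. The other 4208 count in all totals but not in start, 3′ end or promoter shares. Another 105 genes are placed below 3 Mb and their positions were not checked. Pileup was the whole number whose fold and Poisson tail gave the deposited −log10 p with a tolerance of 0.01, for 99.6% of Smc3 het and 99.4% of Smc3 wt peaks. A CpG ratio is observed CG over that expected from C and G.

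Named genes are up to 3 set-apart genes per list with the highest −log10 q, the 10 highest of all, the 5 highest at genes with a Smc3 wt gene-end peak, the 5 widest, those with most peaks, those at the window's edge, and Smc3, Fli1, Runx1, Cbfb and Myh11. Further list members were added after their values were seen. The peaks, lists and rules were chosen with earlier results of these data known. Python 3.11.15, numpy 2.4.6, pandas 2.3.3 and scipy 1.17.1 were used, and the functions were tested on simulated intervals. Alternatives were other windows, overlap rules, thresholds, list lengths, and the addition of X and Y. Libraries were grouped by title, 3 per genotype.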

Additional observations from a re-analysis of the deposited data

How the results depend on the processing

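The values in the text were 4051 peaks, 2956 set-apart genes, 79.6% of peaks at set-apart genes and 80.5% nearest to a start. Window of 500 bp: 2628 peaks, 92.2% at set-apart genes and 86.1% nearest to a start, and with 2 kb 70.6% and 74.2%. Counting any base of a peak within 1 kb, in place of its summit, gave 77.2% at set-apart genes. Treating peaks within 500 bp of a Smc3 wt peak as shared gave 87.0% and 78.7%, and calling a peak shared only with 50% of it covered gave 64.4% and 83.5%. With −log10 q of at least 5 there were 2247 peaks, 1827 genes, 82.2% and 84.1%; at equal list length 667, 608, 86.4% and 86.4%. A fold of at least 5 in both lists gave 1960 peaks, 99% and 97.8%. A pileup of at least 60, added after seeing the data, gave 308 peaks, 260 genes and 85.0%. Adding X and Y moved none of the 4. The order of the gene lists did not hold at a fold of at least 5, where the myeloid marker lists went down to 0 of 16 and 1 of 12 and housekeeping genes went up to 4 of 12. All peaks given for set-apart genes of those myeloid lists had a fold under 5, so none could pass. The order also moved with the window, and with 2 kb B cell markers had 5 of 12, as dendritic cell markers did. The cause of these changes in order was not tested. Of 56 named genes, 25 were set apart at equal list length, 17 at a pileup of at least 60 and 11 at a fold of at least 5. Fold over each list's own background removes weak Smc3 wt peaks too, so the 1960 peaks at that setting are not a subset of the 4051. No paired analysis was possible because the files hold 1 list per genotype; leaving out libraries was not run for the same reason. Depth is unknown, so sites near the lowest pileup called cannot be said to be closed in Smc3 wt.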

Other observations

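Grouping genes by the stem of their symbol, which was chosen after the values were seen, gave further contrasts beside the 14.3% of all genes set apart. Of genes with the stem Cd, mostly leukocyte surface antigens, 32 of 98 were set apart (32.7%, 23.5 to 42.9). Stems of large general families were closer to all genes, with 71 of 388 for Zfp zinc-finger genes (18.3%), 62 of 362 for Slc transporters (17.1%), 39 of 231 for Tmem genes (16.9%) and 15 of 78 for Il genes (19.2%). Genes with the stems Rpl and Rps, mostly ribosomal protein genes, were low, with 3 of 50 (6%) and 1 of 41 (2.44%). A Smc3 wt gene-end peak keeps a gene from being set apart, and 39 of those 50 and 33 of those 41 had one. Olfactory receptor genes had 17 of 1104 (1.54%) and vomeronasal receptor genes 8 of 354 (2.26%). Of these, only 1 and 2 had a Smc3 wt gene-end peak.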
